A study of Homo sapiens with 24 samples.

Results

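The genes described here are 10 members of the matrix metalloproteinase (MMP) and tissue inhibitor of metalloproteinases (TIMP) families: MMP1, MMP2, MMP7, MMP14, MMP15, MMP16, MMP24, TIMP1, TIMP2 and TIMP3. They were taken as a named list, by Ensembl identifier mapped to symbol, out of 21992 genes tested in at least 1 of 4 human lung cancer cell lines. The list was chosen with earlier results of these data known. Counts of called members beside the share of all genes are therefore a description. Stranded RNA-seq libraries from total RNA gave the measurements, 24 in all, with 3 independent replicates in each of 8 groups. A549 and H1299 (NCI-H1299) come from non-small cell lung tumours. Their groups were control cells with a wild-type genotype label (library codes A549Lv and H1299Lv) and cells overexpressing HEPACAM2 (OE, codes A549Hp and H1299Hp). HEPACAM2 encodes an adhesion molecule of the immunoglobulin superfamily. DMS454 and H1694 (NCI-H1694) come from small cell lung tumours, which are neuroendocrine. Their groups were libraries titled control with a wild-type genotype label (codes DMSG2 and H1694G6, called G below) and libraries titled CRISPR with a genotype label of HEPACAM2 knockdown (codes DMSpL and H1694pL, called pL). The sources used here do not give the vector, its promoter, or whether an arm was a pool of cells or 1 clone.

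MMPs are zinc endopeptidases that cut proteins of the extracellular matrix and of the cell surface, and they are made as inactive proenzymes. MMP1 is an interstitial collagenase, MMP2 a gelatinase and MMP7 (matrilysin) a small epithelial protease. MMP14, MMP15, MMP16 and MMP24 are membrane-type MMPs, held in the plasma membrane and activated by furin-like convertases. TIMPs are secreted proteins that block the active site of MMPs. TIMP2 also has a part in activation: at the cell surface it bridges MMP14 and the MMP2 proenzyme, which a second MMP14 molecule then cleaves.

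Levels are the deposited normalized counts, which are read counts divided by the size factor of the library, given as mean ± SD (n = 3). Differences are on the log2 scale, each with the SE that limma gave for log2(normalized count + 1). A gene was called at an adjusted p under 0.05 over all genes tested in its line. A gene was tested in a line where its mean over the 6 libraries was at least 10. Directions are OE minus control in A549 and H1299, and G minus pL in DMS454 and H1694. Each table was normalized on its own, so levels of different lines were not tested against each other.

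The A549 libraries held 16358272 to 29838960 reads and the H1299 libraries 12704476 to 20332419. Those of DMS454 held 15652553 to 30241598, and those of H1694 held 19682771 to 31770858. HEPACAM2 was 0.367 ± 0.635 in the A549 controls and 6007 ± 124 with OE, and 2.88 ± 0.724 and 25322 ± 1795 in H1299. In DMS454 it was lower in the libraries labelled control (6550 ± 124) than in those labelled CRISPR (11187 ± 314), and likewise in H1694 (3557 ± 127 and 10356 ± 214). The targeted mRNA thus went against the titles in these 2 lines, and G minus pL follows lower HEPACAM2 mRNA. In H1299 control 1 and OE 1 stood apart: their median absolute log2 difference from the other libraries of their group was 0.220 and 0.216, against 0.150 to 0.164 for the other 4. The DMS454 library labelled CRISPR 3 stood apart less (0.168, against 0.0965 to 0.127 for the other 5). All 12 neuroendocrine markers had a mean of at least 10 in DMS454 and 11 of 12 in H1694, against 5 of 12 in A549 and 4 of 12 in H1299. Among lung epithelial markers NKX2-1 and SFTPB were not listed in A549, nor were CDH1, SFTPC and SFTPB in H1299.

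Not every member was expressed in every line. In A549, MMP16 was not listed in the table, whose lowest mean over the 6 libraries was 1.13, and MMP1 (1.68) and TIMP3 (6.68) lay below a mean of 10. In H1299, MMP7 and TIMP3 were not listed in a table that began at a mean of 1.47, and the other 8 were tested. In DMS454, MMP1 (5.37), MMP2 (0), MMP7 (0.139) and TIMP3 (2.06) lay below 10, and in H1694 MMP1 (0), MMP7 (0), MMP16 (5.23) and TIMP1 (1.80) did. MMP2 had 0 of 134617966 reads in DMS454, which allows up to 0.0223 CPM by a limit of 3 reads. MMP1 and MMP7 had 0 of 148533875 in H1694, which allows up to 0.0202 CPM. These limits cover counting error only.

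**Figure D1:**
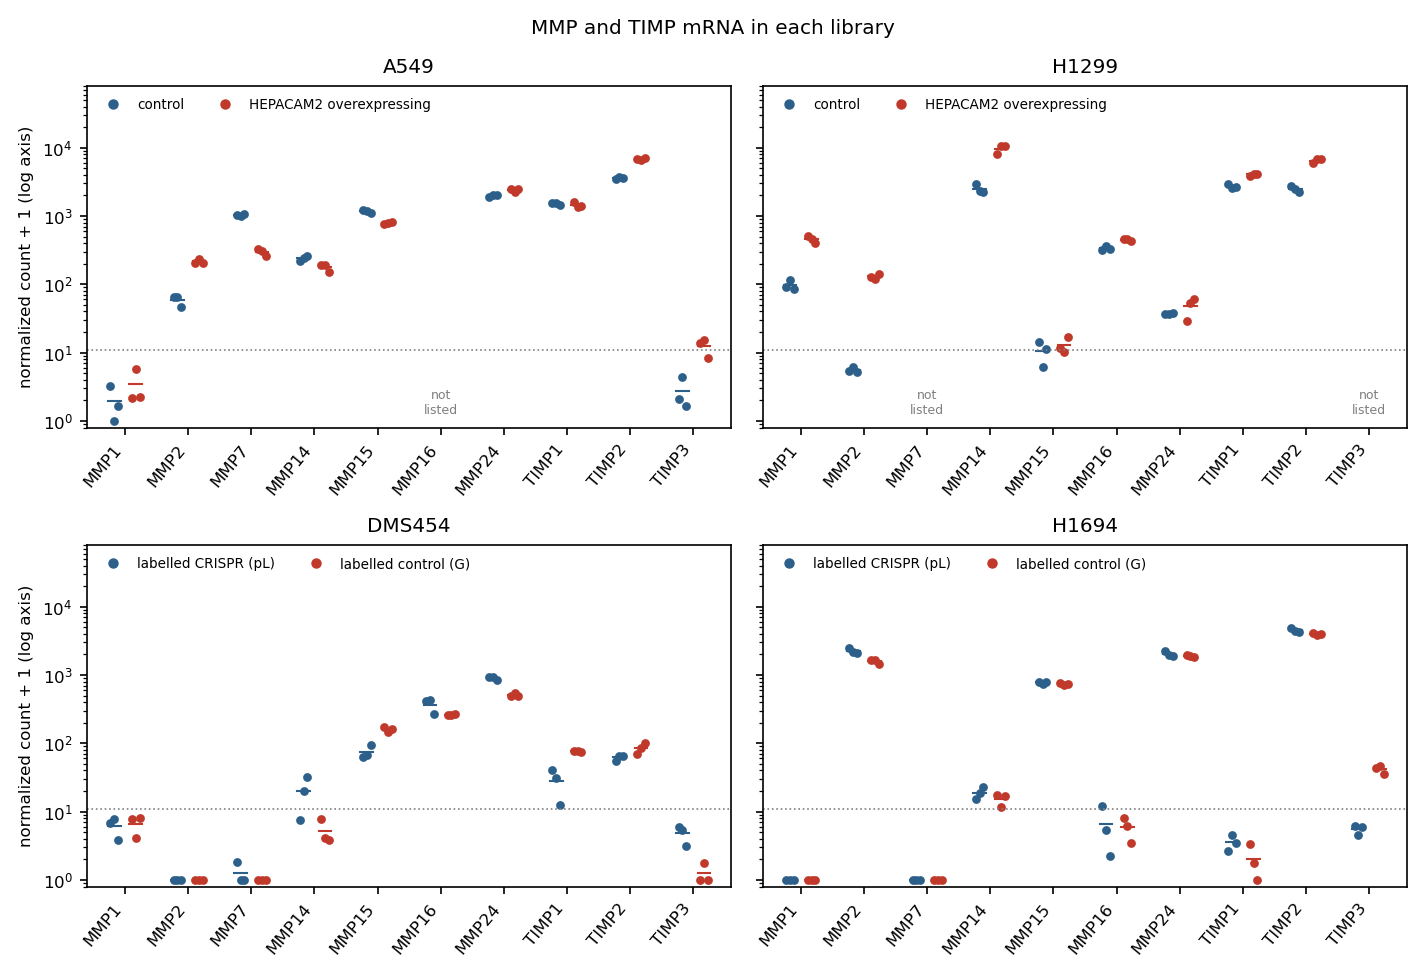
Normalized count + 1 (log axis) of the 10 genes in each library, with 1 panel per cell line. Points are libraries, short bars are group means, and the dotted line is a normalized count of 10. MMP14 in H1299 (2499 in controls and 9652 with OE) and MMP2 in H1694 (1587 in G and 2258 in pL) stand high where the same gene is low or at 0 in another line.

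Promoter windows from 250 bases before to 50 bases after the start were taken from RefSeq (GRCh38.p14) for 6 members. These were MMP7, MMP14, MMP15, MMP24, TIMP1 and TIMP3. MMP16 was left out of the search, and no window was matched for MMP1, MMP2 and TIMP2. Both strands were searched for 5 motifs. The AP-1 motif was spelled TGANTCA. For ETS factors the letters were AGGAAG. For TEAD factors the letters were GGAATG. GC boxes were spelled GGGCGG. The core promoter motif known as the TATA box had the letters TATAAA. The stretch up to 31 bases before the start is printed for MMP7, MMP14 and TIMP3, which moved in different lines or in opposite directions, with every match of the 5 motifs in capitals. MMP7 is at chr11:102530778-102530997 (minus strand), MMP14 at chr14:22836335-22836554 (plus strand) and TIMP3 at chr22:32801455-32801674 (plus strand).
MMP7: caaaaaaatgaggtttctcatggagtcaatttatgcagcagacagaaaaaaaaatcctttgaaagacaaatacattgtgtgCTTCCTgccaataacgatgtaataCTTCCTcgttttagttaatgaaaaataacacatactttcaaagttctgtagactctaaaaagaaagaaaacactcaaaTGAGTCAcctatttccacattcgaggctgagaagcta
MMP14: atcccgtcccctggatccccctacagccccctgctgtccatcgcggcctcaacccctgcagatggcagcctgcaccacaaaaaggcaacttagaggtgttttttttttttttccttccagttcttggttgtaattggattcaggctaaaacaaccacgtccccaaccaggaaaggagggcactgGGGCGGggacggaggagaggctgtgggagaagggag
TIMP3: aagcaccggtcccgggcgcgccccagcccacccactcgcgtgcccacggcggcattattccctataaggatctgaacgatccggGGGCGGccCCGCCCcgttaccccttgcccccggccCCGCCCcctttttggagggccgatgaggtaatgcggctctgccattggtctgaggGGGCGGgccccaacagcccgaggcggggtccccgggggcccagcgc

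MMP7 had an AP-1 match at position -67 and ETS matches at -169 and -145, both on the minus strand, and a TATA box at -30. Of 35116 windows of this length 7.71% held the AP-1 motif, 33.6% the ETS motif and 11.5% the TATA box. MMP14 had 1 GC box, at -66, and TIMP3 had 5, as did MMP15, while MMP24 had 3 and TIMP1 had 2 and an ETS match at -87. The GC box was in 45% of windows. The TEAD motif, in 14% of windows, was in none of these 6. The GC content of the window was 35.7% for MMP7, 55.0% for MMP14 and 72.7% for TIMP3. A match is a description of letters and not of a bound site.

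With HEPACAM2 overexpression, A549 cells had more mRNA of the gelatinase MMP2 and of the inhibitor TIMP2, and less of the epithelial protease MMP7 and of the membrane-type MMP14 and MMP15. Of the 7 members tested, 3 rose and 3 fell, where 44.9% of all 16236 genes tested were called (22.8% higher and 22.1% lower). The median log2 difference of the 7 was -0.07, and that of all genes tested was -0.00012. The libraries of the 2 groups did not overlap for 6 of the 7, where 52% of all genes did not overlap.

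MMP2 (ENSG00000087245, chromosome 16, 55389700 to 55506691, plus strand, GRCh38) was at 64.9, 64.4 and 45.7 normalized counts in the A549 controls and at 207, 235 and 205 with OE. The lowest OE library was above 3 times the highest control (fitted fold 3.69, log2 difference 1.89, SE 0.14, adjusted p = 1.0e-15). TIMP2 (ENSG00000035862, chromosome 17, 78852977 to 78925387, minus strand) was at 3449, 3730 and 3659 in the controls and at 6851, 6630 and 6961 with OE. It was per kilobase the more abundant of these 2 genes in both groups and rose 1.89-fold (log2 difference 0.92, SE 0.04, adjusted p = 3.8e-25). MMP14 (ENSG00000157227, chromosome 14, 22836557 to 22849027, plus strand), the membrane partner of both in MMP2 activation, moved the other way. It fell from 219, 241 and 260 to 189, 190 and 150 (log2 difference -0.45, SE 0.11, adjusted p = 4.8e-04), and the groups did not overlap. In a bulk library, fewer cells that express a gene and less RNA per cell cannot be told apart.

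MMP7 (ENSG00000137673, chromosome 11, 102520508 to 102530753, minus strand), a matrilysin of glandular and airway epithelium, was tested in A549 alone among the 4 lines. It stood at 1022, 1005 and 1053 in the controls and at 327, 305 and 263 with OE. The controls were 3.44 times the OE libraries (log2 difference -1.79, SE 0.07, adjusted p = 3.6e-26), and no library of the OE group came near a control. MMP15, another membrane-type MMP, fell from 1170 ± 48.0 to 790 ± 21.1 (log2 difference -0.57, SE 0.05, adjusted p = 9.5e-13). MMP24, a membrane-type MMP best known from neural tissue, rose from 1992 ± 69.7 to 2396 ± 107 (log2 difference 0.27, SE 0.04, adjusted p = 1.2e-06). TIMP1, the other secreted inhibitor at high level, was 1521 ± 56.5 in the controls and 1451 ± 125 with OE, with overlapping groups (log2 difference -0.07, SE 0.05, adjusted p = 0.27). Without OE 1 its difference was -0.14 with an adjusted p of 0.027. TIMP3, a matrix-bound inhibitor, was at 1.10, 3.45 and 0.662 in the controls and at 13.0, 14.5 and 7.34 with OE, from 5 and 35 reads. It lay below the minimum over the line and was not tested.

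In A549 the summed level of fibroblast markers was 385 to 406 normalized counts in the controls and 2311 to 2485 with OE. Most of the sum was COL1A1, at 257 ± 5.62 in the controls and 2102 ± 80.2 with OE. Of the 10 markers 4 were tested: COL1A1 and THY1 rose and the other 2 were not called. COL1A2, DCN, FAP and POSTN were not listed. Of 6 lung epithelial markers tested 5 were lower with OE, where 22.1% of all genes tested were. EPCAM (-1.01), CDH1 (-0.74) and KRT18 (-0.41) were among them, and KRT7 was higher (0.33). Lung epithelial markers summed to 213740 to 222501 in the controls and 193752 to 203294 with OE. Neuroendocrine markers summed to 734 to 837 in the controls and 539 to 640.2 with OE. Of 5 tested, CHGB alone was called (-1.14). The part of these markers in the results was not tested.

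With HEPACAM2 overexpression, H1299 cells had more mRNA of 6 members and less of none that was called. The collagenase MMP1, the gelatinase MMP2, its membrane activator MMP14 and the inhibitors TIMP1 and TIMP2 rose, and so did MMP16 by a small amount. Of 8 members tested 6 rose and 0 fell, where 29.1% of the 15800 genes tested were called (13.5% higher and 15.6% lower). The 8 include MMP2 (4.54 in the controls) and MMP15 (9.53), which passed the minimum through the OE group alone. All 8 log2 differences were above 0 by limma and by edgeR, so the count of falls was 0 at an unadjusted p under 0.05 too. DESeq2 called the same number of members, 6. The median log2 difference of the 8 was 0.98, against -0.0013 over all genes tested, and the groups did not overlap for 6 of the 8, where 43.3% of all genes did not.

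MMP14 had the highest level per kilobase of the 7 MMPs in H1299. It stood at 2938, 2330 and 2229 normalized counts in the controls and at 8061, 10448 and 10447 with OE, so the lowest OE library was well above the highest control. The difference was 3.86-fold (log2 1.95, SE 0.14, adjusted p = 1.1e-04). MMP2 was at 4.36, 5.11 and 4.16 in the controls and at 128, 119 and 141 with OE, from 14 and 394 reads. It passed the minimum over the line through the OE group alone (log2 difference 4.56, SE 0.22, adjusted p = 1.3e-05), and the ratio of the means was 28.5. TIMP2 rose from 2755, 2477 and 2211 to 5931, 6715 and 6728 (2.61-fold, log2 difference 1.38, SE 0.10, adjusted p = 6.6e-05). All 3 genes of the MMP2 activation complex were therefore higher in every OE library than in every control of this line.

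MMP1 (ENSG00000196611, chromosome 11, 102789920 to 102798160, minus strand), the interstitial collagenase, was at 89.9, 114 and 84.2 in the H1299 controls and at 513, 458 and 403 with OE. It rose 4.74-fold (log2 difference 2.25, SE 0.15, adjusted p = 6.2e-05). TIMP1, which inhibits most secreted MMPs, rose from 2735 ± 198 to 4083 ± 151 (log2 difference 0.58, SE 0.08, adjusted p = 1.0e-03). MMP16 rose from 333 ± 27.3 to 446 ± 19.2 (log2 difference 0.42, SE 0.10, adjusted p = 0.013). This call was lost without OE 2 (adjusted p = 0.056) and without control 3 (adjusted p = 0.055). MMP15 was near the minimum, at 9.53 ± 4.06 in the controls and 11.9 ± 3.43 with OE (log2 difference 0.35, SE 0.41, adjusted p = 0.56). MMP24 was at 35.8, 35.8 and 36.4 in the controls and at 27.7, 53.1 and 60.6 with OE, where OE 1 lay below the controls and the other 2 above them (log2 difference 0.31, SE 0.29, adjusted p = 0.47).

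The 2 H1299 libraries that stood apart, control 1 and OE 1, were left out together to see what rested on them. Without them MMP14 differed by 2.20, MMP2 by 4.54, TIMP2 by 1.52, MMP1 by 2.12 and TIMP1 by 0.67 on the log2 scale. MMP24 then rose by 0.64 (adjusted p = 0.034), and it did so too without OE 1 alone (0.64, adjusted p = 0.046). Across genes the deviation of a library from the mean of the line went with gene GC content: Spearman's rho was -0.23 in OE 1 and 0.43 and 0.44 in the other OE libraries, and 0.30 in control 1 and -0.44 and -0.43 in the other controls. After removal of each library's trend with GC content the differences were 1.78 for MMP14, 4.47 for MMP2, 2.34 for MMP1, 1.37 for TIMP2, 0.54 for MMP16 and 0.43 for TIMP1. Those of MMP15 and MMP24 went from 0.35 to 0.04 and from 0.31 to 0.09.

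**Figure D2:**
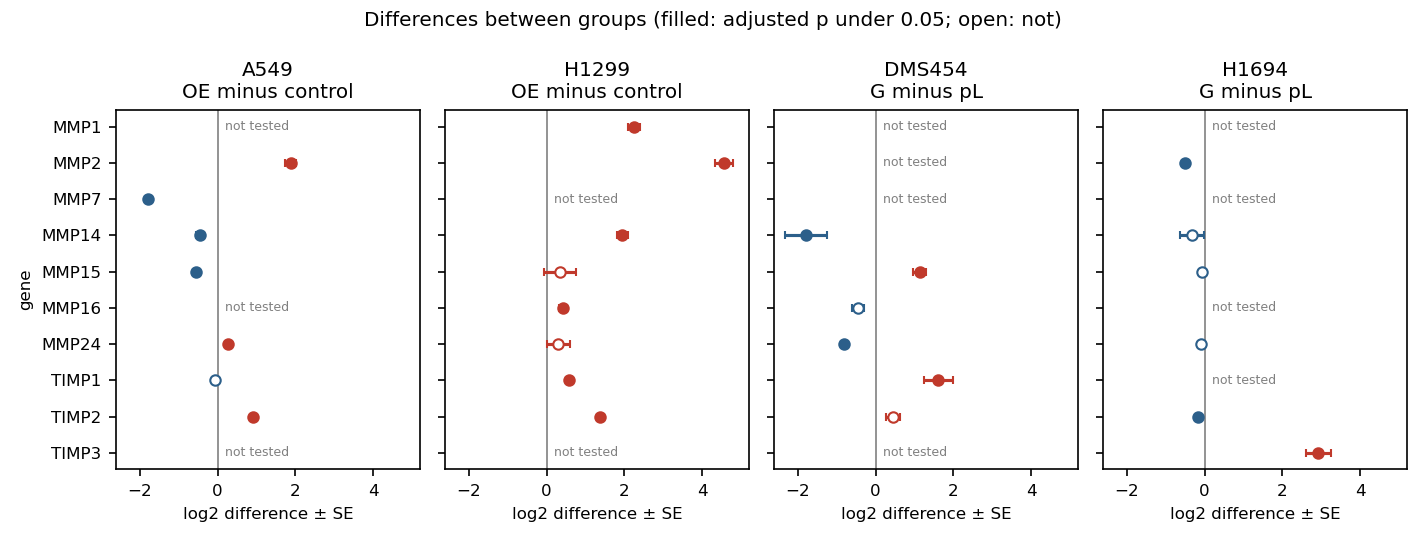
Log2 difference ± SE of each gene in the 4 lines (OE minus control, or G minus pL), red above 0 and blue below it, filled where adjusted p was under 0.05. In H1299 the filled points all lie above 0, from 0.42 for MMP16 to 4.56 for MMP2, while in A549 3 lie above and 3 below.

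The size of the OE difference was compared between A549 and H1299 for the 6 members tested in both. It differed for 4 of them, where 41.9% of 14233 genes differed (23.2% with a higher value in A549 and 18.7% with a lower one). MMP14 differed in sign: it fell by 0.45 in A549 and rose by 1.95 in H1299 (difference of the differences, A549 minus H1299, -2.39, SE 0.19, adjusted p = 1.2e-06). For MMP2, higher with OE in both lines, the contrast was -2.67 (SE 0.25, adjusted p = 2.2e-06). In H1299 it had passed the minimum through the OE group alone, from controls at 4.54, so the size rests on the pseudocount and was -2.0 with a pseudocount of 5. TIMP2 also rose in both (-0.47, SE 0.11, adjusted p = 2.8e-03), and TIMP1 was called in H1299 and not in A549 (-0.65, SE 0.10, adjusted p = 1.4e-04). MMP15 (-0.91, SE 0.36, adjusted p = 0.057) and MMP24 (-0.04, SE 0.30, adjusted p = 0.93) did not pass with limma. For MMP15, edgeR (-0.96, adjusted p = 0.027) and DESeq2 (-0.94, adjusted p = 0.032) called the difference. Without control 1 and OE 1 of H1299 MMP15 and MMP24 both passed, at -1.22 (adjusted p = 0.010) and -0.37 (adjusted p = 4.6e-03). In H1299 MMP15 had passed the minimum through the OE group alone, from controls at 9.53. Its H1299 values rest on 30 reads in the controls and 37 with OE, so these calls have that limit.

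In DMS454, the G libraries (labelled control, with lower HEPACAM2 mRNA) had more mRNA of the membrane-type MMP15 and of the inhibitor TIMP1 than the pL libraries (labelled CRISPR), and less of the membrane-type MMP24 and MMP14. MMP14 passed the minimum through the pL group alone (4.22 in G), with overlapping groups, and the counts that follow include it. The calls of MMP14 and TIMP1 were lost when some single libraries were left out. Of 6 members tested 2 were higher and 2 lower, where 19.3% of 18405 genes were called (9.95% higher and 9.35% lower). The median log2 difference of the 6 was -0.01, against -0.00013 over all genes tested, and the groups did not overlap for 4 of the 6, where 36.7% of all genes did not.

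MMP24, the member with the highest level per kilobase in DMS454, was at 487, 541 and 496 in the G libraries and at 927, 919 and 839 in the pL libraries. Every pL library was above every G library (log2 difference -0.82, SE 0.07, adjusted p = 1.4e-05). MMP15 (ENSG00000102996, chromosome 16, 58025566 to 58046901, plus strand) was at 175, 147 and 161 in G and at 62.4, 65.5 and 94.7 in pL. It was 2.19-fold higher in G (log2 difference 1.13, SE 0.17, adjusted p = 7.4e-04). TIMP1 (ENSG00000102265, chromosome X, 47582313 to 47586789, plus strand) was at 77.4, 75.6 and 73.7 in G and at 39.1, 30.0 and 11.6 in pL, where pL 3 lay far below the other 2 (log2 difference 1.61, SE 0.37, adjusted p = 0.013). The call was lost when any 1 G library was left out, at an adjusted p of 0.059 without G 1, 0.053 without G 2 and 0.057 without G 3.

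MMP14 was low in DMS454, at 6.79, 3.08 and 2.78 in G and at 6.65, 18.9 and 31.1 in pL, with overlapping groups and 11 and 68 reads. It passed the minimum through the pL group alone (log2 difference -1.78, SE 0.54, adjusted p = 0.036). The call was lost without pL 2 (adjusted p = 0.12), without G 2 (0.12) and without G 3 (0.13), and with limma-voom (0.071). MMP16, at 258, 263 and 267 in G and 409, 429 and 265 in pL, did not pass (log2 difference -0.45, SE 0.16, adjusted p = 0.076). Its pL 3 library lay among the G libraries, and without pL 3 the difference was -0.67 (adjusted p = 1.4e-07). In the authors' deposited table its log2 fold change was -0.48 with an adjusted p of 0.022. TIMP2 was 84.2 ± 16.8 in G and 61.2 ± 6.17 in pL (log2 difference 0.44, SE 0.18, adjusted p = 0.12), and without pL 3 it was 0.49 with an adjusted p of 0.044. TIMP3 was at 0, 0.771 and 0 in G and at 4.99, 4.44 and 2.17 in pL, from 1 and 13 reads. Fibroblast markers summed to 428 to 467 in G and 335 to 379.5 in pL, with 3 of 10 at a mean of at least 10 and POSTN at 0. Of these 3, FAP alone was called (0.54). Lung epithelial markers summed to 62288 to 63300.1 in G and 61340 to 62155 in pL (7 of 9). Of these 7, KRT19 (0.53) and KRT7 (0.20) were called, both higher in G. Neuroendocrine markers summed to 207206 to 209106 in G and 197334 to 215063 in pL (12 of 12). Of these, 2 were called higher in G, NCAM1 (0.70) and GRP (0.57). Another 3 were called lower, NEUROD1 (-0.71) and CHGA (-0.32) among them. Their part in the results was not tested.

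In H1694, the G libraries had more mRNA of the matrix-bound inhibitor TIMP3 and less of MMP2 and TIMP2 than the pL libraries. TIMP3 passed the minimum through the G group alone (pL mean 4.49), and the counts that follow include it. Of 6 members tested 1 was higher and 2 were lower, where 17.8% of 17407 genes were called (8.97% higher and 8.88% lower). The median log2 difference of the 6 was -0.13, against 0.00066 over all genes tested, and the groups did not overlap for 3 of the 6, where 35% of all genes did not.

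TIMP3 (ENSG00000100234, chromosome 22, 32801701 to 32863043, plus strand) was at 42.6, 45.0 and 34.0 in the G libraries of H1694 and at 5.06, 3.52 and 4.89 in the pL libraries, from 124 and 14 reads. It passed the minimum through the G group alone (log2 difference 2.92, SE 0.32, adjusted p = 1.1e-05). MMP2 was abundant in this small cell line, at 1662, 1636 and 1464 in G and 2448, 2196 and 2129 in pL (log2 difference -0.51, SE 0.06, adjusted p = 5.9e-05). All G libraries lay below all pL libraries. TIMP2 was at 4177, 3809 and 3940 in G and 4812, 4439 and 4236 in pL, a small difference (log2 difference -0.18, SE 0.05, adjusted p = 0.025). Its call was lost without pL 2 (adjusted p = 0.079), G 2 (0.14) or G 3 (0.086).

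MMP14, the membrane activator of MMP2, stood at 14.3 ± 3.30 in the G libraries of H1694 and 18.0 ± 3.85 in pL (log2 difference -0.32, SE 0.32, adjusted p = 0.54), far below MMP2 and TIMP2 in the same libraries. MMP15 was 740 ± 27.4 and 776 ± 31.7 (log2 difference -0.07, SE 0.06, adjusted p = 0.47). MMP24 was 1909 ± 83.0 and 2022 ± 196 (log2 difference -0.08, SE 0.06, adjusted p = 0.44). Fibroblast markers summed to 1493 to 1586 in G and 1178 to 1422 in pL (4 of 10 at a mean of at least 10, COL3A1 and LUM at 0). Of these 4, 2 were called higher in G, COL1A2 (0.34) among them, and COL1A1 was called lower (-0.70). Endothelial markers summed to 3130.1 to 3206 and 3687 to 3819 (3 of 6). Nearly all of that sum was CDH5 (3127 ± 33.1 in G and 3711 ± 65.1 in pL), the only endothelial marker called. Neuroendocrine markers summed to 68968 to 69992 in G and 63888 to 66782 in pL (11 of 12). Of these, 3 were called higher in G and 2 lower, DLL3 (-0.51) among the lower. Lung epithelial markers summed to 1019 to 1047 and 902 to 993 (5 of 9), with KRT19 higher in G (1.36). Their part in these results was not tested.

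The G minus pL difference was compared between DMS454 and H1694 for the 4 members tested in both, and 3 of them differed, where 20.4% of 15153 genes did (9.95% with a higher value in DMS454 and 10.5% with a lower one). MMP15 differed by 1.20 between the lines (SE 0.18, adjusted p = 2.2e-04) and MMP24 by -0.74 (SE 0.10, adjusted p = 7.2e-05). TIMP2, higher in G in DMS454 and lower in G in H1694, differed by 0.62 (SE 0.16, adjusted p = 0.015). MMP14 did not pass (-1.46, SE 0.64, adjusted p = 0.12). In DMS454 it had passed the minimum through the pL group alone, with G at 4.22. It passed only without pL 1 of DMS454 or under other settings, and pL 1 (6.65) lay among the G libraries (2.78 to 6.79). Without pL 1 the value was -2.04 (adjusted p = 0.019), so it rests on few reads and on the library left out.

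**Figure D3:**
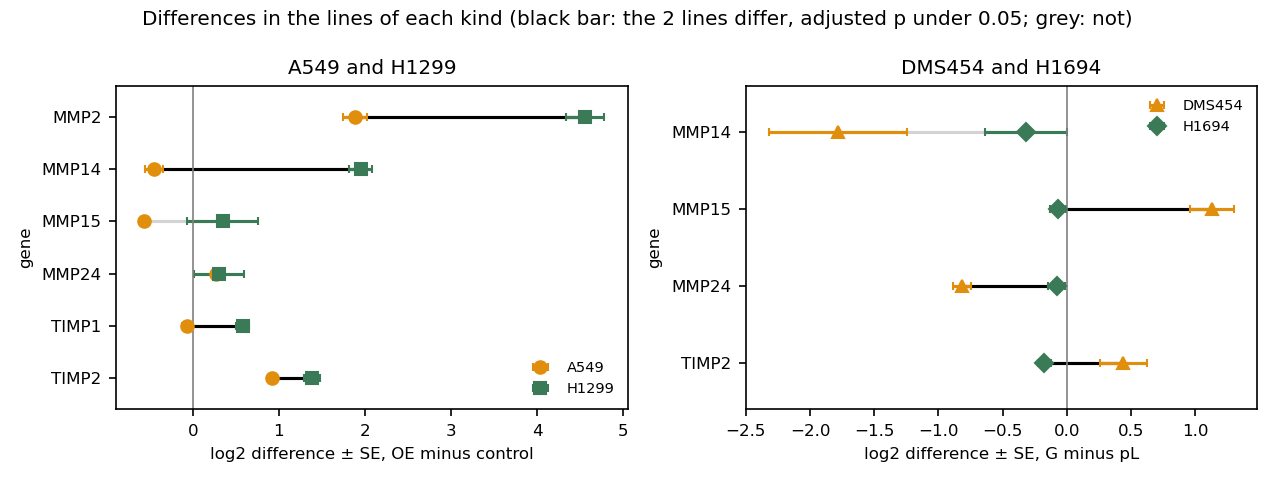
Log2 difference ± SE of the members tested in both lines of a kind, on the left OE minus control in A549 (circles) and H1299 (squares), on the right G minus pL in DMS454 (triangles) and H1694 (diamonds). A black bar joins values that differed between the lines at adjusted p under 0.05. The MMP14 bar crosses 0, from -0.45 in A549 to 1.95 in H1299.

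Levels of different genes were compared within a line per kilobase of exon. In the A549 controls the order began with TIMP1 (987 ± 36.6 normalized counts per kilobase), TIMP2 (641 ± 25.9), MMP24 (451 ± 15.8) and MMP7 (442 ± 10.5), and the libraries of MMP24 and MMP7 overlapped. With OE, TIMP2 (1210 ± 29.9) stood above TIMP1 (942 ± 81.4), and MMP2 (43.8 ± 3.37) overlapped with MMP14 (39.6 ± 5.07). In the H1299 controls TIMP1 (1775 ± 129), MMP14 (560 ± 85.9) and TIMP2 (440 ± 48.3) led. With OE the order of these 3 was the same, at 2649.5 ± 97.7, 2162 ± 309 and 1146 ± 81.0, with no overlap between neighbours. In the G libraries of DMS454 MMP24 led at 115 ± 6.44 per kilobase, followed by TIMP1 at 49.0 ± 1.20 and MMP15 at 36.5 ± 3.15. In the pL libraries MMP16 (30.3 ± 7.40), TIMP1 (17.4 ± 9.10) and MMP15 (16.8 ± 4.03) overlapped with their neighbours. In H1694 TIMP2 led in G (706 ± 33.1) and pL (798 ± 51.9), followed by MMP24 and MMP2, whose libraries overlapped in pL (458 ± 44.5 and 458 ± 34.1) but not in G (432 ± 18.8 and 322 ± 21.8).

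The summed level of the 7 MMPs was set against that of the 3 TIMPs in each library, per kilobase, as a description of the listed genes. In A549 the MMP sum was 1224 ± 14.0 in the controls and 935 ± 20.3 with OE, while the TIMP sum was 1629 ± 29.4 and 2154 ± 94.6. The ratio of MMP to TIMP mRNA was thus 0.740 to 0.774 in the controls and 0.425 to 0.445 with OE. In H1299 the MMP sum was 647 ± 83.9 in the controls and 2471 ± 288 with OE, and MMP14 made up 84.1% to 89.1% of it. The H1299 ratio was 0.272 to 0.308 in the controls and 0.596 to 0.681 with OE, so it lay lower with OE in A549 and higher with OE in H1299, with no overlap of groups. In DMS454 the ratio was 2.66 to 2.83 in G and 7.29 to 12.4 in pL, where TIMP sums were only 64.0 ± 1.79 and 29.1 ± 8.59. This ratio depends on the genes listed. Outside the sums, DMS454 had TIMP4 at 33.0 ± 1.95 per kilobase in G and 46.7 ± 14.6 in pL. MMP11 was at 184 ± 3.73 and 228 ± 9.68 there, and MMP26 at 93.7 ± 5.85 and 188 ± 18.9. In H1694 the ratio of MMP to TIMP mRNA was 1.24 to 1.36 in G and 1.34 to 1.39 in pL, with overlapping groups.

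**Figure D4:**
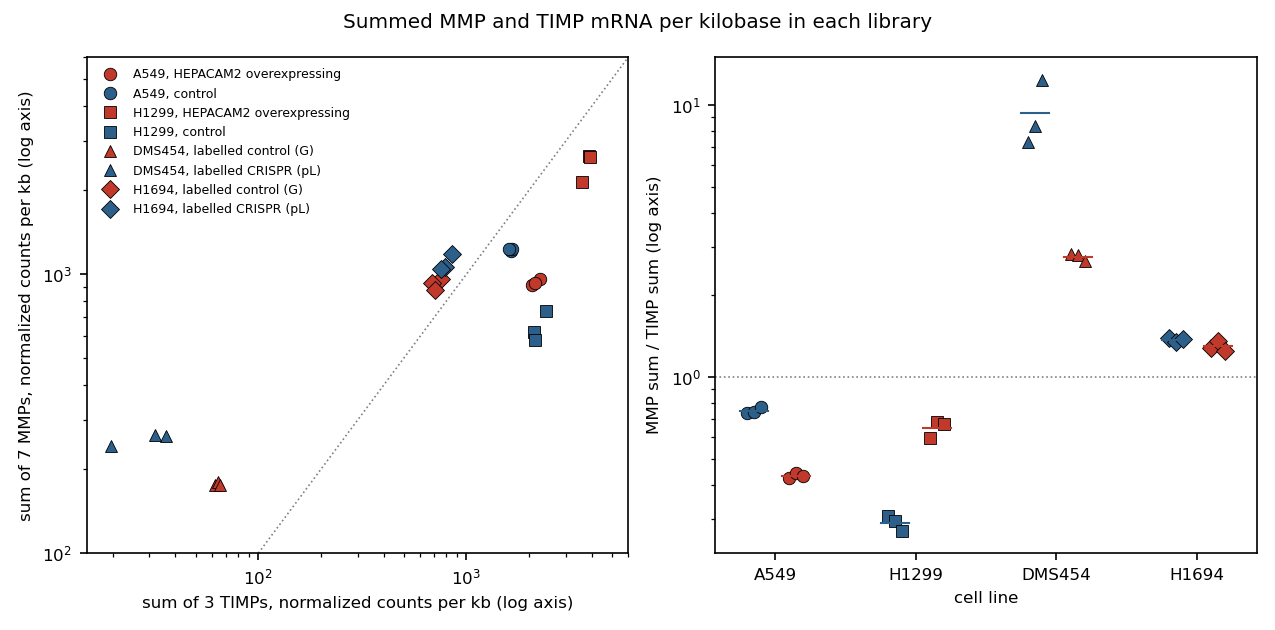
Left, the summed level of the 7 MMPs against that of the 3 TIMPs in each library, in normalized counts per kilobase (log axes, dotted line at equal sums). Right, their ratio per library (log axis, bars are group means). The ratio is lower with OE in A549 (0.425 to 0.445, controls 0.740 to 0.774) and higher with OE in H1299 (0.596 to 0.681, controls 0.272 to 0.308).

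Of 17 other genes of these families, TIMP4 among them, 5 were tested in A549, of which 1 rose and 1 fell, where 22.8% of all genes were higher and 22.1% lower. MMP9, the other gelatinase, rose from 5.53 ± 1.27 to 41.7 ± 13.2 (log2 difference 2.68, SE 0.34), and it passed the minimum through the OE group alone, with 18 reads in the controls. MMP28, an epithelial MMP, fell from 74.3 ± 5.68 to 18.1 ± 3.10 (-1.99, SE 0.22), while MMP17 (-0.07), MMP25 (-0.66) and TIMP4 (-0.10) did not pass. In H1299 4 of 5 rose, where 13.5% of all genes were higher and 15.6% lower. MMP11 (stromelysin-3) rose from 42.1 ± 5.38 to 180 ± 30.7 (2.06, SE 0.18), MMP9 from 15.4 ± 7.12 to 46.7 ± 14.2 (1.62, SE 0.40), and MMP10 (stromelysin-2) from 6.10 ± 0.891 to 15.2 ± 2.82 (1.18, SE 0.33). MMP10 passed the minimum through the OE group alone, with 19 reads in the controls. MMP17, a membrane-type MMP, rose by 1.01 with overlapping groups, and the collagenase MMP13 was 41.0 ± 11.5 and 41.8 ± 10.5. In DMS454 2 of 4 were lower in G (median -0.38), where 9.35% of all genes were: MMP26 at 123 ± 7.65 in G and 246 ± 24.7 in pL, and MMP11 at 951 ± 19.3 and 1182 ± 50.1. MMP10 and TIMP4 did not pass there. In H1694 MMP28 alone was called of 5 tested, where 17.8% of all genes were, and was lower in G at 40.8 ± 6.60 and 64.6 ± 9.70 (median of the 5 -0.04), while MMP9, MMP11, MMP17 and MMP23B did not pass.

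Genes that activate, inhibit or bind MMPs at the cell surface were counted from a list of 25. Over all genes tested, the share higher and lower was 22.8% and 22.1% in A549, 13.5% and 15.6% in H1299, 9.95% and 9.35% in DMS454 and 8.97% and 8.88% in H1694. In A549 9 of 21 tested rose and 4 fell (median 0.07), among the rises the plasminogen activators PLAU (log2 difference 1.12) and PLAT (1.48), which start a protease cascade that activates MMPs, and the serpin SERPINE2 (1.05). In H1299 12 of 19 rose and 2 fell (median 0.42). SERPINE2 (2.42), the integrin subunit ITGB3 (1.91) and LRP1 (1.20), an endocytic receptor that clears MMPs, rose there. In DMS454 4 of 16 were higher in G and 3 lower (median -0.02), with the tight junction gene CLDN1 (-1.94) and the protease inhibitor TFPI2 (-0.89) lower and the proprotein convertase FURIN (0.45) and the proteoglycan AGRN (0.32) higher. In H1694 5 of 15 were higher and 1 lower (median 0.11), with THBS1 (0.89), PLAU (0.51) and the membrane-anchored MMP inhibitor RECK (0.24) higher and AGRN (-0.34) lower.

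Of 23 transcription factors known to act on MMP promoters, 12 of 23 tested rose in A549 and 4 fell (median 0.15), where 22.8% of all genes were higher and 22.1% lower. The AP-1 subunits FOSL1 (1.60), JUN (1.58) and JUNB (1.19) rose and the ETS factor ETV4 fell (-1.03). In H1299 3 of 22 rose and 6 fell (median -0.01), where 13.5% and 15.6% of all genes did, and the AP-1 subunits FOSB (-1.86) and FOS (-1.17) and the ETS factors ETS1 (-0.92) and ETS2 (-1.06) were among the falls. In DMS454 3 of 19 were called, all lower in G (median -0.11), where 19.3% of all genes were called: ETV5 (-0.54), ETV4 (-0.53) and JUNB (-0.45, with overlapping groups). In H1694 5 of 20 were higher and 4 lower (median -0.02), where 8.97% and 8.88% of all genes were, with ETV4 at -1.04, FOS at -0.59, JUND at -0.55 and SNAI2 at 0.61. Of 25 matrix and surface substrates of MMPs, 12 of 21 rose and 5 fell in A549 (median 0.20), 10 of 17 were called in H1299, all higher (0.47), 6 of 17 were higher in G and 3 lower in DMS454 (0.11), and 3 of 19 were higher and 4 lower in H1694 (0.05). The share of all genes called was 44.9%, 29.1%, 19.3% and 17.8% in these lines.

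Some members share exon sequence with other genes, and the sources used here do not say whether the counting used strand. MMP24 shares 799 exon bases with MMP24OS on the opposite strand, so reads there cannot be told apart without strand. MMP24OS was lower with OE in A549 (913 ± 24.1, controls 1218 ± 45.3), where MMP24 was higher. In H1299 it was higher (log2 difference 0.79, SE 0.20, adjusted p = 0.019), where MMP24 did not pass. In DMS454 it was 480 ± 21.2 in G and 525 ± 52.0 in pL (log2 difference -0.12, SE 0.08, adjusted p = 0.34). TIMP2 shares 367 exon bases with an antisense gene on the opposite strand, ENSG00000267601. That gene was at 174 ± 36.9 in the A549 controls and 350 ± 29.9 with OE, and at 97.5 ± 21.8 and 316 ± 83.0 in H1299. It was called higher in both lines, as TIMP2 was. TIMP2 also shares 198 exon bases with CEP295NL, and MMP2 shares 174 with ENSG00000279030. Both pairs lie on the same strand, where strand does not separate reads. CEP295NL was at 0.442 ± 0.765 in the A549 controls and 3.18 ± 2.44 with OE. In H1299 it was at 4.39 ± 2.24 in the controls and 7.81 ± 3.42 with OE. In H1694 ENSG00000279030 was at 0.395 ± 0.684 in G and 0.575 ± 0.498 in pL. MMP1 shares 150 exon bases with WTAPP1 on the opposite strand, which was at 16.5 ± 1.92 and 21.2 ± 4.66 in H1299 (log2 difference 0.33, SE 0.28, adjusted p = 0.41).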

How the data were processed

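Strand-specific libraries were made from DNase-treated total RNA, per the labels. Per the submitters' processing notes, which name Trim Galore, STAR, DESeq2 and hg38 without versions, the reads were trimmed, aligned and analysed. The sources used here name no counter or annotation. Each deposited per-library value, and the deposited mean, is a signal, namely counts divided by size factors. Deposited fold changes and their errors are log2 values, the deposited Wald statistic is a score, and the deposited p-values are raw and adjusted. Whole reads were recovered from 100% of the values within 0.01 and gave the depths.

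Genes with a mean of at least 10 over the 6 libraries of a line were tested with limma 3.58.1 (trend, robust) in R 4.3.3 on log2(value + 1), with Benjamini-Hochberg adjustment over all genes tested. Differences between lines were contrasts of within-line differences over 12 libraries. They were fitted on the 2 tables joined by gene, in which each table's own scaling cancels. The deposited fold changes of DMS454 and H1694 also take G minus pL. Alternatives were edgeR 4.0.16 and DESeq2 1.42.0 on the recovered reads, limma-voom, TMM scaling, a pseudocount of 5, other minimum means (none, 50, or 10 in 1 group), a minimum absolute log2 difference of 1, a block for the replicate number, a correction for GC content, and leaving out libraries. The test was checked on simulated counts with known changes in genes with a mean of at least 50. Every gene was given the same variability setting, and no library effect was simulated. The check therefore does not cover changes near the minimum mean or libraries that stood apart. Gene symbols and positions were read from GENCODE 29 (GRCh38), with symbols also from a name table. Named are the 10 members, HEPACAM2, each other MMP or TIMP4 with a mean of at least 10, and up to 4 called genes per list and line with a mean of at least 50 and the largest change, of which 1 is not reported here. The members and lists were chosen with earlier results of these data known.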

Additional observations from a re-analysis of the deposited data

Results flagged for a closer look

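For 4 genes the response to HEPACAM2 overexpression differed between A549 and H1299 by a direct test of the 2 responses, with the difference given as A549 minus H1299 on the log2 scale. It was -2.67 for MMP2, -2.39 for MMP14, -0.65 for TIMP1 and -0.47 for TIMP2. The MMP2 value has a limit, since in H1299 that gene passed the minimum mean through the overexpressing group alone (controls at 4.54). MMP14 is the gene of these whose response was called in opposite directions. For 3 genes the difference between G and pL libraries differed between DMS454 and H1694, by 1.20 for MMP15, -0.74 for MMP24 and 0.62 for TIMP2 (DMS454 minus H1694). What sets the lines apart was not tested.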

How the results depend on the processing

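Of 37 log2 differences of single members, 25 kept their direction and their side of the threshold under every alternative other than the fold minimum. MMP15 in H1299 ran from -0.0024 (without control 2) to 0.60 when 1 library was left out. The MMP24 difference between A549 and H1299 (-0.04) turned to 0.21 with the GC correction, with and without the block, to 0.082 without OE 2 of H1299 and to 0.18 without OE 3, and ran from -0.38 to 0.18 over the libraries left out. With an absolute log2 difference of at least 1 the members called were 2 in A549, 1 in H1694, 2 between A549 and H1299 and 1 between DMS454 and H1694, by construction of a stricter rule. With no filter 5 differed between DMS454 and H1694. When 1 library was left out, A549 had 6 to 7 members called, H1299 had 5 to 7, DMS454 had 2 to 5 and H1694 had 2 to 3, with 4 to 6 between A549 and H1299 and 3 to 4 between DMS454 and H1694. The 2 in DMS454 came without G 2 or G 3. The cause was not tested.

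With the replicate number as a block the members called were 6 in A549, 5 in H1299 (MMP16 lost, adjusted p = 0.088), 5 in DMS454 (MMP16 gained, adjusted p = 0.042), 3 in H1694, 5 between A549 and H1299 (MMP15 gained, adjusted p = 0.044) and 3 between DMS454 and H1694. Deviations of libraries of the same number correlated between -0.56 and 0.13 over the lines, so the numbers were not taken as pairs. Among all genes the counts called were 7292 in A549, 4601 in H1299, 3552 in DMS454 and 3106 in H1694, and edgeR on the recovered reads called 7363, 4592, 3486 and 3308. In H1299 the count was 1631 with the block, 8825 without control 1 and OE 1, and 2661 to 5386 when 1 library was left out. Leaving out 1 library gave 1944 to 6570 in DMS454 (6570 without pL 3) and 1820 to 4482 in H1694. A log2 difference of at least 1 left 830, 759, 322 and 208 in the 4 lines, 1483 of 5960 between A549 and H1299 and 380 of 3097 between DMS454 and H1694. DESeq2 gave no adjusted p for MMP14 and TIMP3 in H1694, MMP14 in DMS454 or MMP15 in H1299. Depth limits the members with few reads, such as MMP14 in DMS454 (11 and 68 reads) and MMP15 in H1299 (37 and 30).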

Other observations

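Genes whose pattern was most like that of a member were looked for over the 12 libraries of A549 and H1299, on log2(normalized count + 1) with each line centred on its own mean, among genes with a mean of at least 50 in both lines. The points share libraries and the treatment, so Pearson's r is given as a description. For MMP2 these were SERPINE2 (r = 0.996), a serpin that inhibits plasminogen activators and thrombin, and S100A16 (0.989). For TIMP2 they were the intermediate filament gene VIM (0.998) and LTBP2 (0.992), a matrix glycoprotein. For MMP14 they were NRSN2 (0.992) and PYM1 (0.988), and for TIMP1 GNB5 (0.976) and EMP3 (0.975). For MMP15 (TMEM80, 0.939, and CDADC1, 0.905) and MMP24 (ABL1, 0.877, and KCTD1, 0.876) the likeness was weaker. VIM rose by 0.53 in A549 and 0.81 in H1299, and LTBP2 by 0.96 and 1.83.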
